A study of Mus musculus with 9 samples.

Results

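Tibialis anterior muscle of mice without MCU was compared with that of control mice across all genes on the array. The comparison rests on 6 of the 9 arrays of the series, 3 from MCU knockout and 3 from control mice, chosen by the genotype in their labels, and on 22206 probe sets, each standing for a transcript. Control mice were MCU+/+ and MCUb+/+, MCU knockout mice were MCU-/- and MCUb+/+, and a further group of 3 arrays came from MCUb knockout mice, MCU+/+ and MCUb-/-. All 3 groups were on the C57/BL6 background and 2 months old, and whole muscle was flash-frozen before total RNA was taken. How the alleles were deleted, in which cells, and the sex, litter and harvest time of the mice are not given in the sources used here. Whether the samples within a genotype are separate animals is not given either, and the p-values therefore describe only how these samples varied, some of which may be technical.

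The mitochondrial calcium uniporter is a channel of the inner mitochondrial membrane that lets calcium flow from the cytosol into the matrix. MCU forms its pore, MCUb is a paralogue of MCU that can join the same complex, EMRE (gene Smdt1) is needed for the channel to conduct, and the MICU proteins gate it by sensing cytosolic calcium. In working muscle, matrix calcium stimulates pyruvate dehydrogenase and dehydrogenases of the citrate cycle, and so ties contraction to the supply of ATP.

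Levels are log2 values as deposited, so a difference of 1 is a doubling. Between 45.3% and 45.9% of probe sets on an array were above background, a limit of 5.87 to 5.92 set by 23 background sets on each array. Muscle was recognisable on all 9 arrays: the mean level of 10 muscle identity genes ran from 16.48 to 16.82. Control replicate 3 stood apart, with a mean correlation of 0.978 with the other arrays and a score of -70.8 on the first principal component, where the other 8 arrays lay between -20.3 and 21.9. The arrays also differed in Uty and Kdm5d, genes of the Y chromosome, whose mean on an array is called its Y-linked level. In MCU knockouts 1, 2 and 3 it was 3.58, 7.56 and 7.24, in controls it ran from 3.12 to 3.89, and in MCUb knockouts it was 7.80, 3.01 and 3.58. MCU knockout replicates 2 and 3 and MCUb knockout replicate 1 are called the high-Y arrays below. Eif2s3y, also a measured gene of the Y chromosome, was not in this mean. It was below background on all 9 arrays, at 2.75 to 3.75, and did not show the same split. An unnamed probe set of the Y chromosome, TC0Y00000235.mm.2, also outside this mean, did show it. On the high-Y arrays, in the order named, it was at 10.73, 10.41 and 10.72, and on the other 6 between 3.95 and 4.52.

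Mcu itself was the most clearly changed gene. Control levels of its probe set, on chromosome 10, were 10.38, 10.96 and 10.46, and MCU knockout levels were 6.80, 6.98 and 7.06. The groups lay 3.32 apart on the log2 scale, and the MCUb knockout arrays, at 10.71, 11.06 and 10.81, were at the level of the controls. Mcu fell by 3.65 on the log2 scale (SE 0.20), 12.6-fold (limma, adjusted p = 3.47e-05). By a two-sided exact permutation test p was 0.1, which is the least that 3 against 3 arrays can give. All 3 MCU knockout arrays kept a signal above background, and the position of the probes against the deletion is not known. Of the 3 measured genes on either side of Mcu, P4ha1 had a log2 change of -0.72 (SE 0.28, adjusted p = 0.441), and the other 5 lay between -0.25 and 0.40.

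Across the array, 31 of 22206 probe sets (0.14%) passed an adjusted p of 0.05 in limma, 14 higher (0.063%) and 17 lower (0.0766%) in MCU knockout muscle. Their changes ran from 1.20 to 3.76 in size on the log2 scale, with a median of 1.82. The spread was estimated from all 9 arrays, MCUb knockouts included, and 21 probe sets passed in a fit of the 6 arrays alone. The number of calls turned on single arrays: 98 probe sets passed without control replicate 2 and 20 without MCU knockout replicate 3. With the arrays' Y-linked level as a covariate it was 16, and it was 0 without the 3 high-Y arrays, which leaves 1 MCU knockout array; at an unadjusted p of 0.05, 1090 passed there, against 2243 (10.1%) with all arrays. In every setting tried, each of the 31 that was tested kept its direction. In all 31 the MCU knockout and control arrays did not overlap, as they did not for 13.4% of all probe sets. Leaving out arrays therefore could not have turned the direction of any of the 31. For 29 of the 31, the MCU knockout arrays lay outside the range of all 6 other arrays, which held for 3.51% of all probe sets. The 31 were chosen by their p in this comparison, which by itself favours both kinds of separation.

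**Figure D1:**
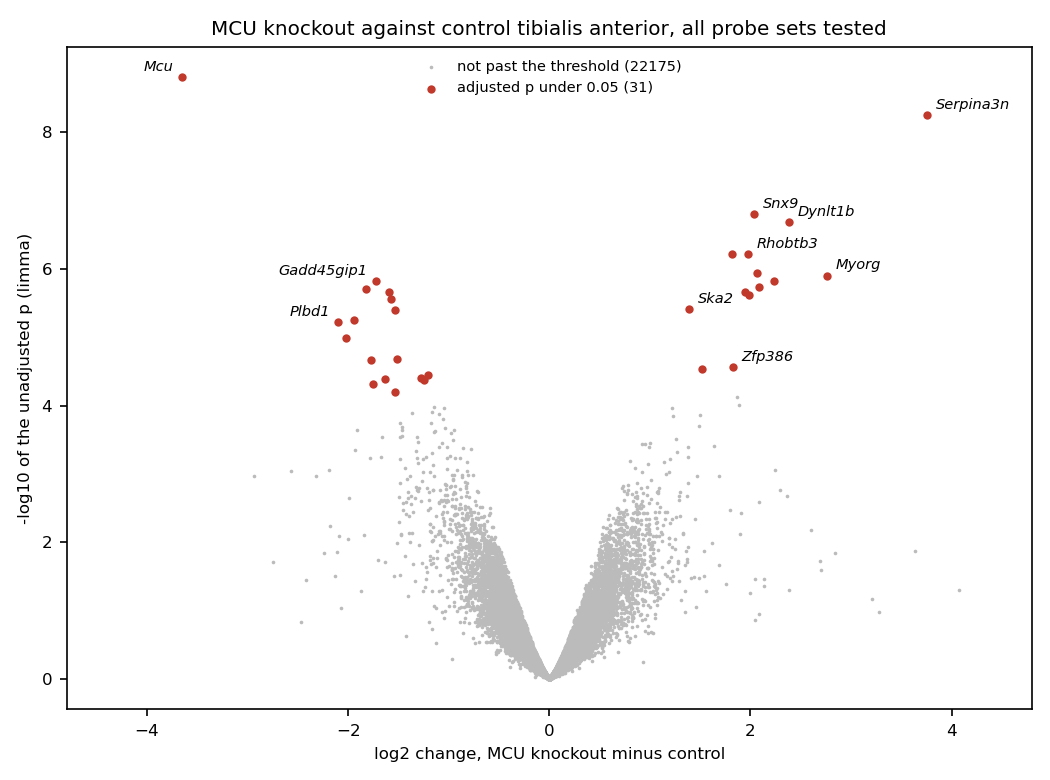
Each point is a probe set, with the log2 change of MCU knockout minus control on the horizontal axis and -log10 of the unadjusted limma p on the vertical axis. The 31 probe sets past an adjusted p of 0.05 are coloured, with Mcu, at -3.65, and Serpina3n, at 3.76, farthest from 0 among them.

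The direct contrast of the knockouts shows which of these changes set MCU knockout apart from MCUb knockout muscle. Between the knockouts 35 of 22206 probe sets (0.158%) passed, and 20 of the 31 were past the threshold there too, each in the same direction as against control. The other 11 were not: Gm3893, Ska2, Vmn2r29, Hagh, Pdlim1, Zfp386, Washc2, Wdr83, Gnrh1, Gpr19 and Entpd1. Between MCUb knockout and control 5 probe sets (0.0225%) passed, none of them among the 31. Both contrasts with control share the control arrays, so the MCUb knockout values below are given side by side with the others, not as an independent repeat.

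Among the genes that rose was Serpina3n, which encodes a secreted inhibitor of serine proteases. Its log2 levels were 4.14, 4.20 and 4.02 on the controls and 7.71, 8.16 and 7.77 on the MCU knockout arrays. No control or MCUb knockout array was above background for it, while every MCU knockout array was. It rose at least 3.95-fold (measured log2 change 3.76, SE 0.24, adjusted p = 6.28e-05), a bound that sets the MCU knockout mean against the background limit. It was the only member of the 20 measured clade A serpins to pass, and only 3 of the 20 were above background on any of the 6 arrays.

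Serpina3n is also a gene that glucocorticoids raise in muscle, and it was the only member past the threshold among 27 measured glucocorticoid-responsive genes. Of these 27, 14 were above and 13 below control, and the median change was 0.00, against -0.02 over all probe sets. At an unadjusted p of 0.05, 6 were higher and 1 lower, together 25.9%, where 4.76% of all probe sets were higher and 5.35% lower. Errfi1, a feedback inhibitor of the EGF receptor, was at 11.43, 11.79 and 11.04 in controls and 12.46, 12.30 and 12.75 in MCU knockouts. Its groups did not overlap, and its change of 1.09 (SE 0.27) had an adjusted p of 0.252. Tsc22d3, which encodes the glucocorticoid-induced leucine zipper, differed by 0.70 (SE 0.20, adjusted p = 0.333), and MCUb knockout arrays were as high, at 12.58 to 12.87 against 12.17 to 12.68 in MCU knockouts.

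Snx9, Washc2 and Rhobtb3 rose. Snx9, a sorting nexin that bends membrane and drives actin assembly in endocytosis, was at 9.41, 9.04 and 9.22 in controls and at 11.32, 11.23 and 11.23 in MCU knockouts. It rose 4.11-fold (log2 change 2.04, SE 0.18, adjusted p = 0.00116), and MCUb knockout arrays lay between 9.22 and 9.53. Washc2, a subunit of the WASH complex that makes branched actin on endosomes, went from 8.83, 9.32 and 9.13 to 10.90, 10.20 and 10.74, a 2.87-fold rise (SE of the log2 change 0.22, adjusted p = 0.0261). Rhobtb3, which encodes a protein of the Golgi and endosomes, rose by 1.98 (SE 0.19, adjusted p = 0.00226), and its 3 MCU knockout arrays lay between 12.31 and 12.72 against 10.27 to 10.70 in controls. Among 46 measured sorting nexins and endocytosis genes Snx9 alone passed. The next of them, Snx33, had a change of 0.91 (SE 0.22, adjusted p = 0.248).

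Dynlt1a, Dynlt1b, Dynlt1c and Dynlt1f are copies of a light chain of cytoplasmic dynein, the motor that carries cargo towards the minus ends of microtubules, and lie close together on chromosome 17. Dynlt1b was at 11.52, 11.07 and 10.94 in controls and 13.33, 13.69 and 13.68 in MCU knockouts, a rise of 2.39 (SE 0.21, adjusted p = 0.00116). Dynlt1a went from a mean of 13.04 ± 0.28 (SD, n = 3) to 15.11 ± 0.24, Dynlt1c from 11.21 ± 0.39 to 13.29 ± 0.25, and Dynlt1f from 12.48 ± 0.35 to 14.47 ± 0.21, rises of 2.06, 2.08 and 1.99. The 4 copies rose to a like extent, with no overlap of the groups, and each was also higher than in MCUb knockout muscle (adjusted p between 0.00256 and 0.00976). Of 20 measured dynein subunits these 4 rose and none fell. Dynll2, another light chain, differed by 0.47 (SE 0.21, adjusted p = 0.484), Dynlrb1 by -0.19 and Dynlt3 by 0.08, 3 genes named after their values were seen.

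The copies are so alike that their probe sets may share signal, and how many of them changed is uncertain. The promoters of Dynlt1c (chr17:6601529-6601828, plus strand) and Dynlt1f (chr17:6655890-6656189, minus strand) are shown for that likeness. They are 300 bases each in RefSeq on GRCm38.p6, from 250 bases before to 50 after the start of the gene. Capitals mark the stretch of 192 bases that they share, with 189 identical bases, 3 mismatches and no gap, an identity of 98.4%. In Dynlt1c it covers bases 1 to 192 of the window and in Dynlt1f bases 109 to 300, so it lies at different distances from the annotated start.
Dynlt1c: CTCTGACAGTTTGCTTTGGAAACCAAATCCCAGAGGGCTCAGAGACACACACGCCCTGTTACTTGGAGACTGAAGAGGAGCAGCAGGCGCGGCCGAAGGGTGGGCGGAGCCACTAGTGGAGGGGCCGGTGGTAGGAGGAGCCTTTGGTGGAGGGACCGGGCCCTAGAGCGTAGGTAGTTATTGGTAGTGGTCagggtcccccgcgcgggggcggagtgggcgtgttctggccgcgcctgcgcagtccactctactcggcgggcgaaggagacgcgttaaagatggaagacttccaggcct
Dynlt1f: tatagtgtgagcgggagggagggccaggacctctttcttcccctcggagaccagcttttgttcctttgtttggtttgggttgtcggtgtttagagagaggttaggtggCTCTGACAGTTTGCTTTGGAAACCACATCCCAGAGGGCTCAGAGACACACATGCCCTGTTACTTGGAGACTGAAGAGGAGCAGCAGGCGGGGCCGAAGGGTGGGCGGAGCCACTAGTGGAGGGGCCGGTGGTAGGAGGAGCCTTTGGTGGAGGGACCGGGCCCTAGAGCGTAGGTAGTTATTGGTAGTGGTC

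Some called genes lay near each other in the genome: 8 of the 29 named ones had another within 3 measured genes. The 4 Dynlt1 copies, whose probe sets may share signal, are among these 8, and how many to expect was not tested. Other calls on a shared chromosome were far apart, such as Kidins220 and Serpina3n with 398 measured genes between them and Washc2 and Gpr19 with 236. Chromosome 17 held 9 among 964 measured genes, where 0.14% of all probe sets passed. Of these 9, Snx9, the 4 Dynlt1 copies and Rsph3a lay in a run. It had 5 measured genes between Snx9 and Dynlt1a and 9 between Dynlt1f and Rsph3a. Further along chromosome 17, Gfer and Hagh had 8 measured genes between them. On chromosome 4, Myorg and Galt were 8 measured genes apart and Galt and Gm3893 were 3 apart. On chromosome 19, Pdlim1 and Entpd1 had 2 between them, and on chromosome 8 Wdr83 and Wdr83os none.

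**Figure D2:**
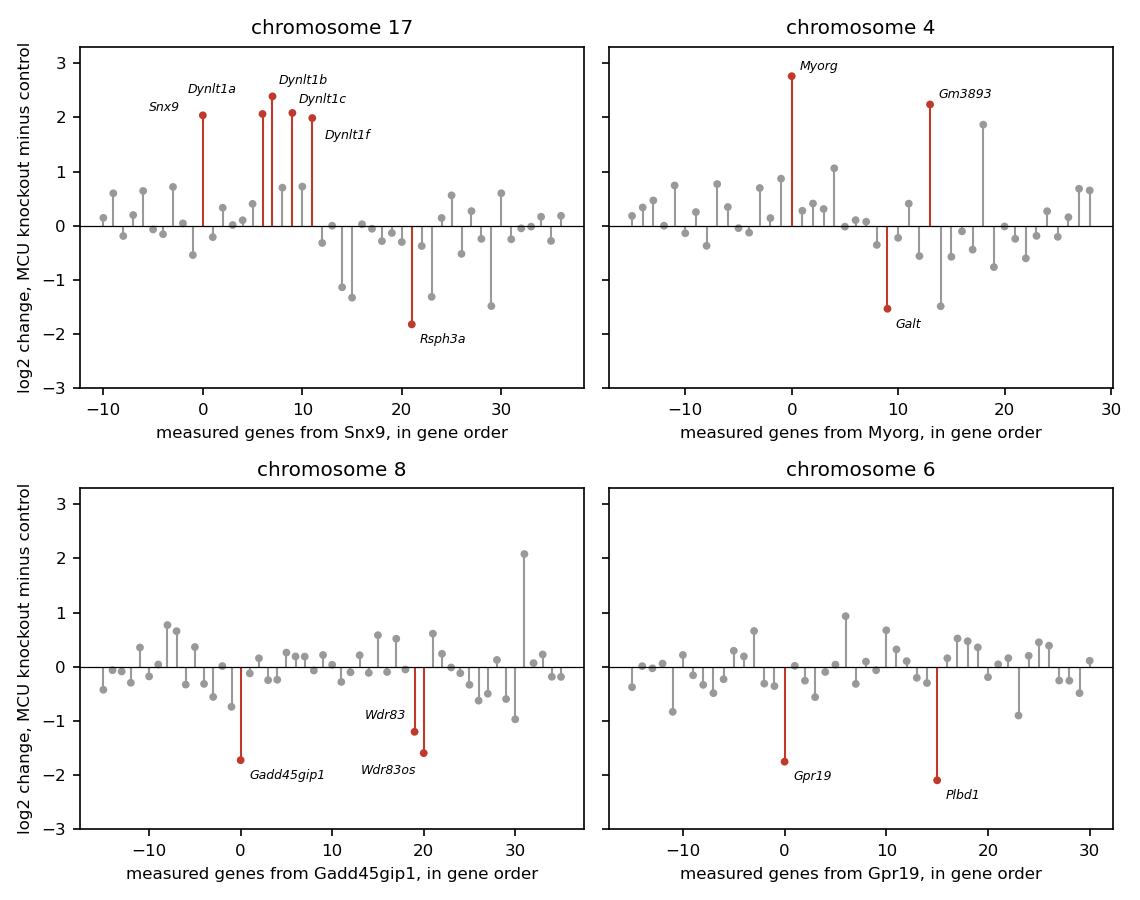
Each stem is a measured gene, placed by its order along chromosome 17, 4, 8 or 6 and counted from the called gene named on the axis, and its height is the log2 change of MCU knockout minus control. Called genes are coloured and named: Snx9 and the Dynlt1 copies rose and Rsph3a fell on chromosome 17, and Myorg and Gm3893 rose while Galt fell between them on chromosome 4.

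Their neighbours differed from control in both directions. Among the 144 measured genes that lay within 3 places of a called gene and were not called themselves, 27 (18.8%) had an unadjusted p under 0.05, against 10.1% of all probe sets, and 32 (22.2%) had groups that did not overlap, against 13.4%. Rsph3b, a copy of Rsph3a 3 places from Dynlt1f, was not above background on any MCU knockout array and at least 1.36-fold lower there (adjusted p = 0.101), in the direction of Rsph3a and opposite to Dynlt1f. Between the Dynlt1 copies, Tmem181b-ps was at 0.70 (SE 0.19, adjusted p = 0.306) and Tmem181c-ps at 0.72 (SE 0.32, adjusted p = 0.486), in the direction of those copies. Tmem181a, next to Dynlt1a, was at 0.40 (SE 0.25, adjusted p = 0.614), and Sytl3, next to Dynlt1f, at -0.32 (SE 0.23, adjusted p = 0.67). Cep43, a centrosome gene 2 places from Rsph3a, was at -1.31 (SE 0.32, adjusted p = 0.25). Glrx, a glutaredoxin next to Rhobtb3, was at 1.14 (SE 0.24, adjusted p = 0.164), Nudt2 next to Myorg at 0.87 (SE 0.25, adjusted p = 0.33) and Noxo1 next to Gfer at 1.07 (SE 0.32, adjusted p = 0.342). None of these passed the threshold.

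Myorg, a glycosidase with a role in the differentiation of muscle cells, was among the genes that rose and was already above background in controls. Its levels were 10.28, 11.46 and 11.05 in controls and 13.59, 13.60 and 13.88 in MCU knockouts. The controls varied more than the knockouts, and the groups still lay 2.13 apart. It rose 6.78-fold (log2 change 2.76, SE 0.29, adjusted p = 0.00336). Gm3893, a transcribed pseudogene nearby, went from 10.82, 11.20 and 11.52 to 13.69, 13.05 and 13.52, a rise of 2.24 (SE 0.24, adjusted p = 0.00336). MCUb knockout arrays were between these groups for Gm3893, at 12.39, 12.14 and 11.90, and the knockouts differed by 1.28 (adjusted p = 0.107).

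Galt, between Myorg and Gm3893 in gene order, fell. It encodes galactose-1-phosphate uridylyltransferase, an enzyme of galactose breakdown. Its levels were 9.55, 9.86 and 9.66 in controls, 8.08, 8.04 and 8.35 in MCU knockouts and 9.60, 9.95 and 9.83 in MCUb knockouts. The fall was 2.90-fold (log2 change -1.53, SE 0.18, adjusted p = 0.005), and against MCUb knockouts the adjusted p was 0.00396.

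The other genes that rose were of mixed kind. Zfp386, a zinc finger protein, went from 7.83, 8.86 and 8.12 to 9.80, 10.27 and 10.20 (log2 change 1.83, SE 0.27, adjusted p = 0.0256). Ska2, a subunit of the spindle and kinetochore associated complex, was not above background in any control, at 5.05 to 5.26, and stood at 6.53, 6.67 and 6.39 in MCU knockouts. It rose at least 1.55-fold (adjusted p = 0.005), but MCUb knockout arrays were at 6.17 to 6.25 and did not differ from MCU knockouts past the threshold (difference 0.31, SE 0.17, adjusted p = 0.942). The predicted gene 9030025P20Rik on chromosome 17 rose by 1.82 (SE 0.18, adjusted p = 0.00226), with its MCUb knockout arrays at 9.42 to 9.64 beside controls at 9.57 to 9.72. An unnamed probe set, TC1700000110.mm.2, rose by 1.94 (SE 0.22, adjusted p = 0.00346).

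**Figure D3:**
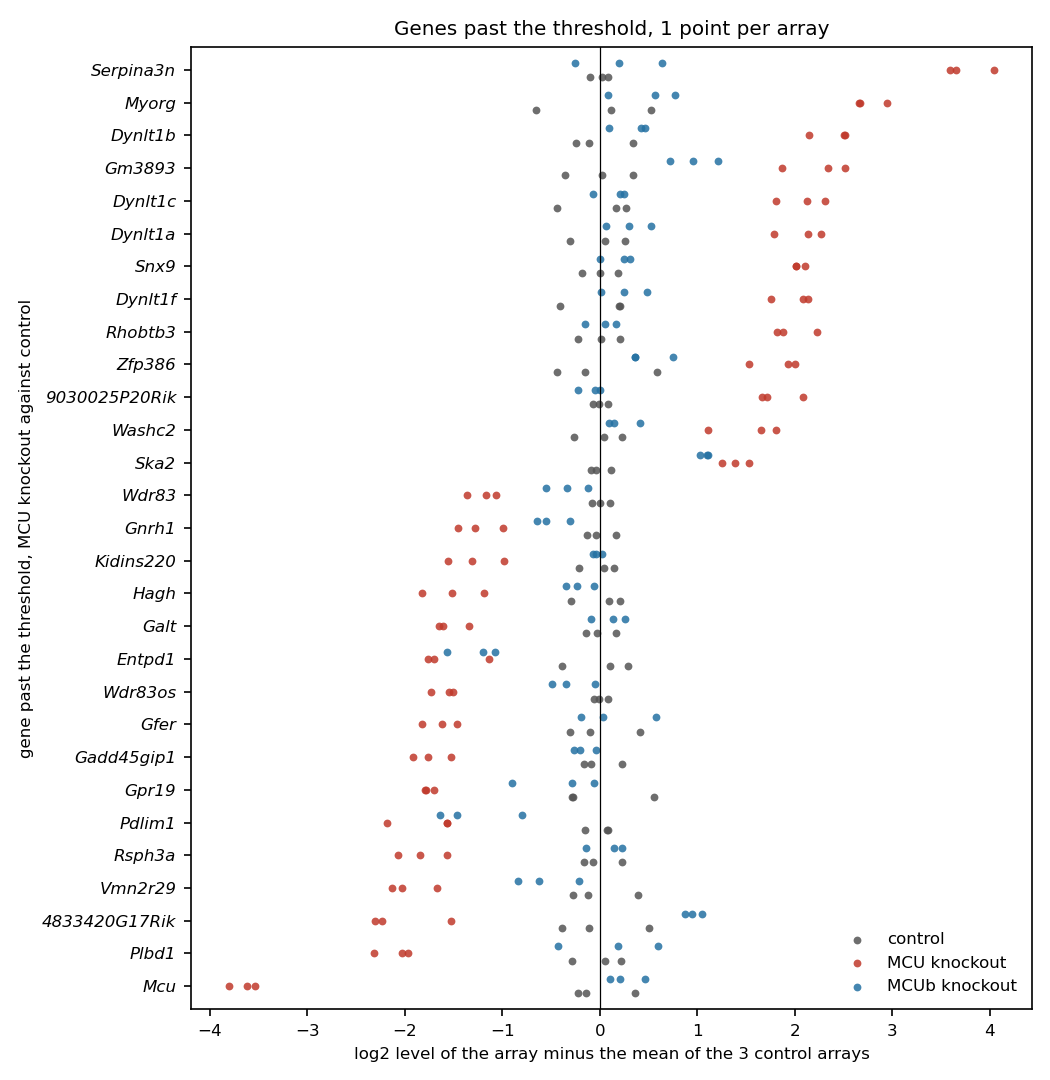
Each point is an array, placed by its log2 level minus the mean of the 3 control arrays, for the 29 named genes past the threshold, with a colour for each genotype. The MCU knockout arrays do not overlap the controls for any of them, and for Ska2, Pdlim1 and Entpd1 the MCUb knockout arrays lie near the MCU knockout arrays.

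Mitochondrial genes were few among those that fell. Gadd45gip1, also called CRIF1, a protein of the large subunit of the mitochondrial ribosome, had levels of 8.52, 8.91 and 8.59 in controls, 6.92, 7.15 and 6.77 in MCU knockouts and 8.64, 8.48 and 8.42 in MCUb knockouts. It fell 3.31-fold (log2 change -1.73, SE 0.19, adjusted p = 0.00336). Of 79 measured genes of the mitochondrial ribosome it alone passed, while 24 were above and 55 below control with a median of -0.18. In 19 of the 79 (24.1%) the groups did not overlap, 4 higher and 15 lower, against 6.08% and 7.33% of all probe sets. At an unadjusted p of 0.05, 3 were higher and 7 lower, together 12.7%, against 10.1% of all probe sets. Mrps21 differed by -0.73 (SE 0.20, adjusted p = 0.314) and Mrps34 by -0.93 (SE 0.27, adjusted p = 0.341). Control replicate 3, the array that stood apart, had the highest mean over the list, at 10.73, against 10.48 and 10.52 on the other controls and 10.39 to 10.46 on the MCU knockouts.

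Gfer, a sulfhydryl oxidase that helps fold proteins in the space between the mitochondrial membranes, went from 9.82, 10.53 and 10.02 to 8.30, 8.50 and 8.66. It fell 3.10-fold (log2 change -1.63, SE 0.25, adjusted p = 0.0319), and by 1.77 against MCUb knockouts (adjusted p = 0.0163). Chchd4, its partner in the same pathway and named here after its value was seen, had a change of -0.21 (SE 0.23). Of 35 measured genes of import and intermembrane folding, 17 were above and 18 below control, and Gfer alone passed. Hagh, which encodes glyoxalase II, the enzyme that completes the removal of methylglyoxal, went from 11.68, 11.56 and 11.18 to 9.95, 10.28 and 9.65. That fall was 2.86-fold (log2 change -1.51, SE 0.21, adjusted p = 0.0205).

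The rest of the uniporter complex showed no change past the threshold. Of 16 measured genes of mitochondrial calcium transport Mcu alone passed, and the median was -0.02. Smdt1 had a mean of 17.46 ± 0.16 (SD, n = 3) in controls and 17.37 ± 0.09 in MCU knockouts. Micu2, a gatekeeper, was at 8.02 ± 0.87 and 8.46 ± 0.68, and Micu3 at 7.72 ± 0.34 and 7.65 ± 0.28. Letm1, of mitochondrial ion exchange, differed by -0.09 and Slc8b1, the sodium and calcium exchanger of the inner membrane, by -0.03. These 5 genes were named after their values were seen. The largest change besides Mcu was 0.51 (SE 0.29, adjusted p = 0.581) for Yme1l1, a protease of the inner membrane.

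The enzymes that matrix calcium acts on, and the respiratory chain, also had no member past the threshold. Of 13 measured genes of pyruvate entry, 8 were above control. An unadjusted p under 0.05 was found for 3 of the 13 (23.1%), all higher, against 4.76% of all probe sets in that direction. The groups did not overlap for 2 of the 13 (15.4%), both higher, against 6.08%. Mpc1, a subunit of the pyruvate carrier, was at 15.36, 15.65 and 15.47 in controls and 15.98, 16.16 and 16.02 in MCU knockouts, without overlap, a change of 0.56 (SE 0.17, adjusted p = 0.341). Pdk4, a kinase that switches pyruvate dehydrogenase off, was at 10.01, 10.85 and 10.38 and at 11.81, 10.99 and 11.46, a change of 1.01 (SE 0.36, adjusted p = 0.404), while MCUb knockout arrays lay lower, between 8.91 and 10.33. Pdp1, the phosphatase subunit through which calcium switches the enzyme on, differed by 0.71 (SE 0.28, adjusted p = 0.441).

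Of 35 complex I subunits, 16 were above and 19 below control. Ndufa3 stood out at 15.07, 14.93 and 15.38 in controls against 14.10, 14.25 and 13.86 in MCU knockouts, groups 0.68 apart. Its change of -1.05 (SE 0.19) missed the threshold, with an adjusted p of 0.0831. Of 39 measured genes of complexes III to V, 15 were above control and the median was -0.06. Of 16 citrate cycle genes, 7 were above control, and Idh2 had the smallest p, at -0.87 (SE 0.34, adjusted p = 0.43). Idh2 was at 15.37, 13.93 and 14.02 on MCU knockout replicates 1, 2 and 3 and at 14.53 on MCUb knockout replicate 1, against 14.92 to 15.53 on the other 5 arrays, so its low values fell on the high-Y arrays.

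Fatty acid oxidation genes lay mostly below control, with 16 of 20 measured genes there and a median of -0.25. No member passed, and 3 had an unadjusted p under 0.05 (15%), near the 10.1% of all probe sets. The median was 0.05 without the high-Y arrays, which turns its direction. Eci1, an enoyl-CoA isomerase, differed by -0.67 (SE 0.21, adjusted p = 0.352), and Hadha, of the trifunctional protein, by -0.75 (SE 0.25, adjusted p = 0.373). The mean over the list was 12.30 on MCU knockout replicate 1, within the controls at 12.14 to 12.41. On the high-Y arrays it was 11.80, 11.94 and, for MCUb knockout replicate 1, 11.88, and the part of the Y-linked level in this difference was not tested. Glycolysis and glycogen genes, 27 measured, had a median of 0.01 and none with an unadjusted p under 0.05.

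Of 29 measured genes of the integrated stress response and mitochondrial stress, 14 were above and 15 below control, with a median of -0.01 and none past the threshold. Ddit3, a transcription factor of that response, was at 11.84, 11.54 and 11.74 in controls and 11.29, 10.69 and 10.71 in MCU knockouts, a change of -0.82 (SE 0.22, adjusted p = 0.308). Redox defence genes had a median of 0.08. Gclm, for glutathione synthesis, differed by 1.36 (SE 0.46, adjusted p = 0.383) and Srxn1, a sulfiredoxin, by -0.82 (SE 0.26, adjusted p = 0.358). Of 21 genes of mitochondrial biogenesis and dynamics, 6 (28.6%) had groups that did not overlap, 3 in each direction, against 13.4% of all probe sets.

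**Figure D4:**
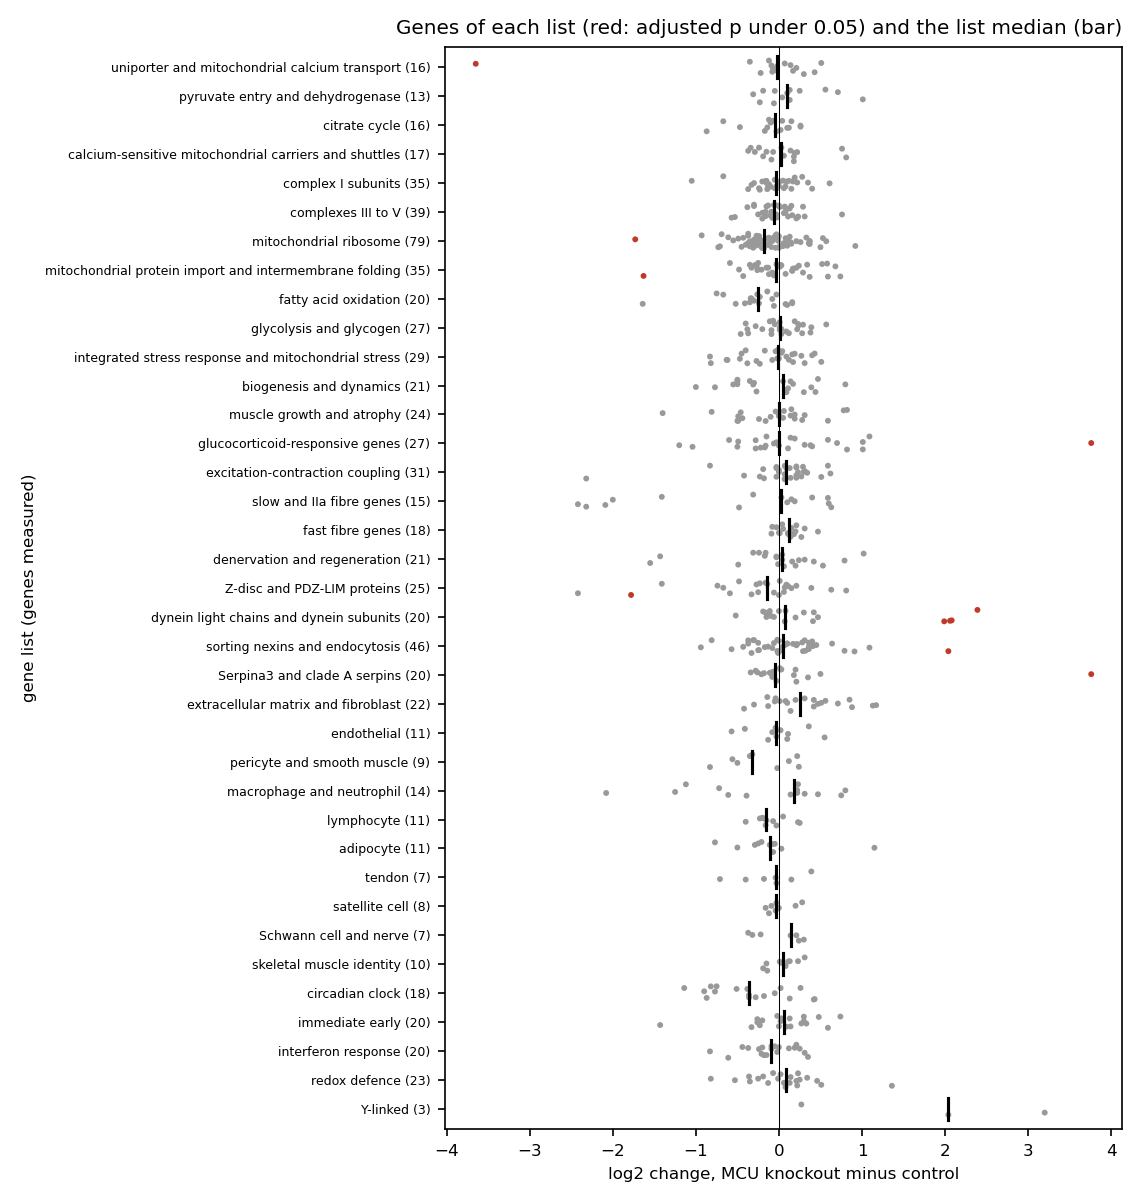
Log2 change, MCU knockout minus control, of every measured member of the gene lists with more than 1 measured gene; a bar marks the median of a list and red an adjusted p under 0.05. Most medians lie close to that of all probe sets, at -0.02, and the few members past the threshold, such as Mcu at -3.65 and Gadd45gip1 at -1.73, lie far from the median of their lists.

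Genes of slow and IIa fibres varied widely among the MCU knockout arrays. Myh2, the myosin of type IIa fibres, was at 16.63, 16.50 and 16.01 in controls and 15.47, 13.44 and 13.96 in MCU knockouts. MCUb knockout replicate 1, also a high-Y array, was at 14.27 and its other replicates at 16.90 and 16.64. Its change was -2.09 (SE 0.65, adjusted p = 0.349). Casq2, the calsequestrin of slow muscle and heart, was at 11.43, 11.63 and 11.68 in controls and 10.43, 9.12 and 8.24 in MCU knockouts, with MCUb knockout replicate 1 at 9.89 against 11.67 and 11.30 (change -2.32, SE 0.53, adjusted p = 0.204). Myl2, the regulatory light chain of slow myosin, was at 9.61, 9.97 and 10.93 in controls and 8.57, 9.32 and 6.60 in MCU knockouts (-2.0, SE 0.63, adjusted p = 0.361).

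Of the 15 measured slow and IIa genes none passed. The median was 0.03 and the mean -0.56, which differ in sign because a few members were far below control, and the median ran from -0.31 to 0.17 over the settings tried. The groups did not overlap for 7 of the 15 (46.7%), 1 higher and 6 lower, against 6.08% and 7.33% of all probe sets. The list's mean level was 10.98 on MCU knockout replicate 1, against 11.22 to 11.27 in controls, and 10.80 and 10.31 on replicates 2 and 3. On MCUb knockout replicate 1 it was 10.23. The part of the Y-linked level was not tested. Of 18 fast fibre genes 15 were above control, with changes no larger than 0.47, and none had an unadjusted p under 0.05 or groups that did not overlap. Myh4, the myosin of type IIb fibres and named after its value was seen, differed by -0.08 (SE 0.17).

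**Figure D5:**
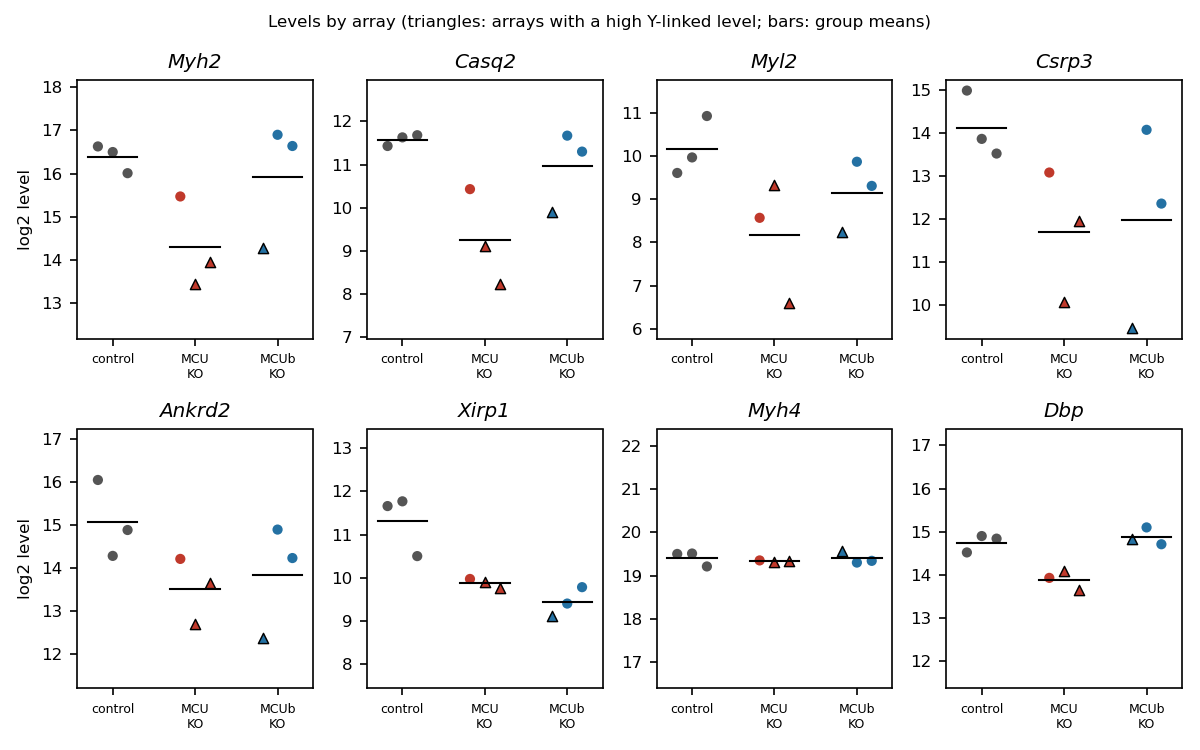
Log2 levels of 8 genes on the 9 arrays, by genotype, with bars at group means and triangles for the 3 high-Y arrays. For Myh2 the high-Y arrays lie between 13.44 and 14.27 and the other 6 between 15.47 and 16.90, while for Dbp all 3 MCU knockout arrays lie below all others.

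Among Z-disc proteins, Pdlim1, a PDZ and LIM protein that binds alpha-actinin, fell. It was at 12.77, 12.55 and 12.78 in controls, 11.13, 10.52 and 11.13 in MCU knockouts and 11.06, 11.90 and 11.24 in MCUb knockouts. The fall was 3.43-fold (log2 change -1.78, SE 0.25, adjusted p = 0.0205). Both knockouts lay below every control, and they did not differ from each other past the threshold (-0.47, SE 0.25, adjusted p = 0.942). Of 25 measured Z-disc and PDZ-LIM genes 9 (36.0%) had groups that did not overlap, 8 of them lower, against 13.4% of all probe sets and 7.33% lower, and Pdlim1 alone passed. Flnc, filamin C, differed by -0.74 (SE 0.22, adjusted p = 0.341). Xirp1, an actin-binding protein of injured and growing muscle, was at 11.66, 11.77 and 10.50 in controls and 9.97, 9.91 and 9.76 in MCU knockouts (change -1.43, SE 0.31, adjusted p = 0.193), with MCUb knockouts as low, at 9.10 to 9.78.

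Of 31 measured genes of excitation-contraction coupling none passed, with a median of 0.09. Stim1, the calcium sensor of the sarcoplasmic reticulum, was at 7.46, 7.45 and 7.72 in controls and 6.93, 6.53 and 6.70 in MCU knockouts, a change of -0.83 (SE 0.21, adjusted p = 0.261). Among 24 measured genes of muscle growth and atrophy none passed either. Mtor, the kinase of the main growth pathway, differed by -1.40 (SE 0.39, adjusted p = 0.311), Mstn, which encodes myostatin, by -0.81 (SE 0.26, adjusted p = 0.361), and Fbxo32, the ubiquitin ligase atrogin-1, by 0.82 (SE 0.29, adjusted p = 0.412).

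Wdr83 and Wdr83os are neighbours on chromosome 8, read from opposite strands, and both fell. Wdr83os encodes a small protein of the endoplasmic reticulum that aids the insertion of membrane proteins. It was at 10.08, 10.13 and 10.22 in controls, 8.64, 8.41 and 8.59 in MCU knockouts and 9.79, 10.09 and 9.65 in MCUb knockouts. The fall was 3.03-fold (log2 change -1.60, SE 0.18, adjusted p = 0.00346), and the difference from MCUb knockouts was -1.30 (adjusted p = 0.0144). Wdr83, a WD repeat scaffold protein, went from 8.90, 8.98 and 9.08 to 7.81, 7.62 and 7.92, a 2.30-fold fall (log2 change -1.20, SE 0.18, adjusted p = 0.03). Its MCUb knockout arrays, at 8.43, 8.86 and 8.64, also lay below every control. For Wdr83 the knockouts did not differ past the threshold (-0.86, SE 0.18, adjusted p = 0.168).

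The promoter window of Wdr83os (chr8:85080713-85081012, plus strand, RefSeq on GRCm38.p6, 300 bases) is shown because it is nearly the same stretch of DNA as that of Wdr83 (chr8:85080697-85080996, minus strand). Capitals mark the 284 bases that also lie in the Wdr83 window, and the annotated starts are 217 bases apart.
Wdr83os: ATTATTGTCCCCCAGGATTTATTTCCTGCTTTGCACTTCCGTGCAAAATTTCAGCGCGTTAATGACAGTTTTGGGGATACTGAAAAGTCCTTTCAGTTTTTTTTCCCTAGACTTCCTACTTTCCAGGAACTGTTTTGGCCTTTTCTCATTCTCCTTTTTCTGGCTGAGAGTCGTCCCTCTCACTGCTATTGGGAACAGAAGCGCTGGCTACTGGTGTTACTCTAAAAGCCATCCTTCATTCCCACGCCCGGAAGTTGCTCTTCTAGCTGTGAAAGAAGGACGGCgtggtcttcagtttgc

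Plbd1, a phospholipase B-like protein of lysosomes, was at 11.49, 11.32 and 10.99 in controls and 9.24, 9.30 and 8.96 in MCU knockouts, a 4.28-fold fall (log2 change -2.10, SE 0.26, adjusted p = 0.00662). Rsph3a, part of the radial spokes of motile cilia, went from 11.30, 11.39 and 11.69 to 9.39, 9.89 and 9.62 (log2 change -1.82, SE 0.20, adjusted p = 0.00346). Kidins220, a scaffold of neurotrophin receptors, went from 11.76, 11.40 and 11.65 to 10.05, 10.30 and 10.63 (log2 change -1.28, SE 0.19, adjusted p = 0.0319). For all 3 genes the MCUb knockout arrays overlapped the controls, and the knockouts differed past the threshold, with adjusted p-values of 0.00551, 0.00309 and 0.0336.

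Entpd1, the ectonucleotidase CD39 that breaks down extracellular ATP, was at 9.22, 8.72 and 9.40 in controls, 7.35, 7.41 and 7.97 in MCU knockouts and 7.91, 7.54 and 8.04 in MCUb knockouts. It fell 2.90-fold (log2 change -1.54, SE 0.25, adjusted p = 0.0458), the highest adjusted p of the 31 calls. MCUb knockout minus control was -1.29 (adjusted p = 0.26), and the knockouts differed by -0.25 (adjusted p = 1). As for Pdlim1, a near neighbour on chromosome 19, all 6 knockout arrays lay below every control.

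The remaining named genes that fell were dim. The predicted gene 4833420G17Rik was at 7.42, 6.81 and 6.53 in controls, 4.62, 4.69 and 5.39 in MCU knockouts, where it was not above background, and 7.79, 7.97 and 7.87 in MCUb knockouts. It fell at least 2.02-fold (adjusted p = 0.0109), and its difference from MCUb knockouts also passed (adjusted p = 0.00126). Gpr19, an orphan receptor, fell at least 1.70-fold (adjusted p = 0.0361). Gnrh1, which encodes gonadotropin-releasing hormone, lay at 5.96, 5.87 and 6.17 in controls, with 2 of 3 above background, and at 4.55 to 5.01 in MCU knockouts, a fall of at least 1.07-fold (adjusted p = 0.0319). Vmn2r29, a vomeronasal receptor, had a log2 change of -1.95 (SE 0.24, adjusted p = 0.00649), and 1 of its 3 MCU knockout arrays was above background. A further unnamed probe set, TC0600001625.mm.2, was well above background and fell by 1.57 on the log2 scale (SE 0.18, adjusted p = 0.0038).

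A further 15 probe sets lay between adjusted p-values of 0.05 and 0.1 in limma, 46 being under 0.1 in all. Bcl2l1, which encodes the anti-apoptotic protein BCL-XL, was at 6.42, 6.75 and 6.08 in controls and 7.57, 7.56 and 7.75 in MCU knockouts (change 1.22, SE 0.21, adjusted p = 0.0678), and MCUb knockouts were at 7.21 to 7.61. Gcsh, the lipoyl carrier protein of mitochondrial glycine cleavage, was at 12.63, 12.70 and 13.19 and at 13.98, 14.10 and 14.14 (change 1.23, SE 0.22, adjusted p = 0.077), and MCUb knockouts were at 12.59 to 13.19. Cops8, a subunit of the COP9 signalosome, was at 12.46, 12.06 and 12.11 and at 11.13, 11.11 and 11.11 (change -1.09, SE 0.19, adjusted p = 0.0749). All 3 separated the groups without passing. Mios, of the GATOR2 complex that regulates mTORC1, differed by -1.36 (SE 0.24, adjusted p = 0.0741), and Maob, a monoamine oxidase of the mitochondrial outer membrane, by -1.47 (SE 0.27, adjusted p = 0.0983), beside -1.60 in MCUb knockouts.

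Of 18 measured circadian clock genes, 5 were above and 13 below control, with a median of -0.36, the lowest of any list of more than 1 measured gene. The median kept its sign over the settings tried, from -0.49 to -0.22. For 7 of the 18 (38.9%) the groups did not overlap, all lower, against 7.33% of all probe sets in that direction, and none passed. Ciart, a repressor in the clock, was at 7.30, 6.87 and 7.42 in controls, 6.50, 5.57 and 6.09 in MCU knockouts and 8.29, 8.25 and 8.71 in MCUb knockouts. Its change against control was -1.14 (SE 0.26, adjusted p = 0.204), and between the knockouts it was -2.37 (adjusted p = 0.0037).

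Dbp, a clock output transcription factor, was at 14.52, 14.90 and 14.84 in controls and 13.93, 14.09 and 13.64 in MCU knockouts (change -0.87, SE 0.20, adjusted p = 0.208). Cry2 and Per2, both repressors of the core loop, differed by -0.82 (SE 0.20, adjusted p = 0.251) and -0.90 (SE 0.26, adjusted p = 0.335). Between the knockouts Cry2 and Per2 were past the threshold, at -1.30 (adjusted p = 0.0336) and -1.75 (adjusted p = 0.0265). The order was MCU knockout lowest and MCUb knockout highest for Ciart, Cry2 and Per2 alike. Harvest time is not given in the sources used here, and the genotypes and harvest time cannot be told apart.

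Markers of other cells gave no gene past the threshold. In bulk muscle, fewer cells of a type and less RNA per cell cannot be told apart. Of 22 extracellular matrix and fibroblast genes 16 were above control, with a median of 0.26, which was -0.13 without the high-Y arrays. The mean level was 8.16 on MCU knockout replicate 1 and 9.0 and 8.77 on replicates 2 and 3, against 8.14 to 8.61 in controls. Col5a1, a fibrillar collagen chain, followed the same split, at 6.80, 7.95 and 7.98 against 6.05 to 6.78 (change 1.17, SE 0.32, adjusted p = 0.306), while MCUb knockout replicate 1 was at 6.30. Of 9 pericyte and smooth muscle genes 6 were below control, with a median of -0.32, which was 0.05 without the high-Y arrays. Rgs5, a pericyte marker, was at 12.82, 12.48 and 12.49 in controls and 11.85, 12.01 and 11.43 in MCU knockouts (change -0.83, SE 0.20, adjusted p = 0.247).

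The medians of endothelial, lymphocyte, adipocyte, tendon, satellite cell and Schwann cell genes lay between -0.15 and 0.14, and 1 of 11 lymphocyte genes was above background on any of the 6 arrays. Of 14 macrophage and neutrophil genes 8 were above control, with a median of 0.18 and a mean of -0.22. Over the settings tried the median ran from -0.24 to 0.26. Among the 14, 2 were higher and 0 lower at an unadjusted p of 0.05. Groups that did not overlap went the other way, with 0 higher and 2 lower. Mrc1, a receptor of resident macrophages, was at 11.14, 9.48 and 10.11 on the MCU knockouts and 9.21 on MCUb knockout replicate 1, against 11.15 to 11.91 on the other 5 arrays (change -1.25, SE 0.57, adjusted p = 0.496). Of the red cell genes 1 was measured: Alas2, of haem synthesis, at -0.77 (SE 0.22, adjusted p = 0.332). Interferon response genes had a median of -0.09, immediate early genes 0.06 and denervation genes 0.04, each with no member past the threshold.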

How the data were processed

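The authors deposited a log2 value for each probe set on each array, and the submitters' processing notes name Affymetrix Expression Console. Its version, normalization and log base are not given in the sources used here, and the values, 2.33 to 19.9, were read as log2 because of that range. Per the labels' protocols, RNA was labelled with a 3' IVT Pico kit and hybridised to Clariom S mouse arrays. Of 28846 values per array, 6640 of control features were not tested. Of the other 22206 probe sets 19572 were named with 1 symbol, 0 with several and 2634 with none, through platform annotation and RefSeq for GRCm38.p6, which served for names, chromosomes, gene order and promoters. The array's own build was not named.

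Tests used lmFit and eBayes of limma 3.58.1 (R 4.3.3), two-sided, with all 9 arrays in 1 fit of 3 group means (6 residual and 5.06 prior degrees of freedom), adjusted by Benjamini-Hochberg over the 22206. With a median SE of 0.23, a gene needed a log2 change of 1.43 to pass. A probe set was above background over the 95th percentile of 23 background sets of its array. Where a group had none above it, its fold is a lower bound, the brighter mean over the limit, or over the dim probe set's own value if higher.

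The comparison and the gene lists were chosen with earlier results of these data known. Named were Mcu, every named call, up to 12 higher and 12 lower named genes next in p with groups that do not overlap, up to 4 members of each list of smallest p, and the 3 measured neighbours on either side of a call. Other genes are said to be named after their values were seen. Lists are described by counts and medians, with no set test. Alternatives were a fit of 6 arrays, quantile normalization, centring, a filter for dim probe sets, a trend with a robust prior, array weights, a replicate block, the Y-linked level as a covariate, and leaving out arrays. Mcub was not analysed here. Of 6640 control features, 626 (9.43%) had an unadjusted p under 0.05 and 0 passed.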

Additional observations from a re-analysis of the deposited data

How the results depend on the processing

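The count of 31 probe sets past the threshold was 21 in a fit of the 6 arrays alone, 31 without dim probe sets and with quantile normalization, 32 after centring, and 36 with a trend and robust prior or with array weights. With the mean Y-linked level in the fit it was 16, 14 of them among the 31, and 0 without the 3 arrays of high Y-linked level. Leaving out 1 array at a time it ran from 20 (without MCU knockout replicate 3) to 98 (without control replicate 2). Replicate numbers did not pair the samples: the deviations of same-numbered MCU knockout and control arrays correlated at -0.018, -0.064 and -0.044, and the replicate block left 24 calls, all among the 31. The log2 change of Mcu without the high-Y arrays was -3.80 with an adjusted p of 0.0794, and it passed under the other 17 settings. Entpd1 passed in 4 of 18 settings, Gnrh1 in 5 of 17, and Wdr83, Kidins220 and Gpr19 in 7 of 18. For the 31, changes were between 0.835 and 1.22 times those reported, with no reversal. Leaving out arrays could not have reversed them, because their groups did not overlap. Only part of the genes on the array were compared gene by gene across these settings. Among them, reversals were seen in 6 genes that passed in no fit compared. Without the high-Y arrays Idh2 was at 0.06, Myf5 at 0.03, Cdh15 at 0.10 and Uty at -0.36. Uty was at -0.24 with the covariate, and Cd4 at -0.01 without MCU knockout replicate 1. Without control replicate 3, Chodl was at -0.02 and Cdh15 at 0.20. With 1 array left out at a time, Cd4 ran from -0.01 to 0.45, Chodl from -0.02 to 0.66 and Cdh15 from -0.38 to 0.20. The cause was not tested. With 3 arrays a group and background near 5.9, small changes and dim genes lie beyond what these arrays can measure well.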

Other observations

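Many of the largest changes that did not pass the test moved with the Y-linked level of the arrays, whose part in them was not tested. Of 32 probe sets with a log2 change of at least 2 that did not pass, 20 (62.5%) had all 3 high-Y arrays above, or all below, the other 6. That held for 3.57% of all probe sets and 0 of the 31 called. MCU knockout replicates 2 and 3 are high-Y arrays, so choosing large changes that did not pass favours this split. Passing the test works against it, so these shares cannot show a link with the Y-linked level. The genes below were chosen after their values were seen, and Uty and Kdm5d are split by construction. Cbr2, a carbonyl reductase, was at 7.98, 11.53 and 11.58 on the MCU knockouts, 6.90 to 7.88 on the controls and 11.34, 8.20 and 8.33 on the MCUb knockouts. Slc15a5, of a family of peptide carriers, was at 4.53, 9.55 and 9.81, at 3.80 to 4.95 and at 7.53, 4.34 and 4.38 in the same order. Amd2, an enzyme of polyamine synthesis, was at 11.83, 14.85 and 15.02, at 11.61 to 11.87 and at 15.01, 11.68 and 11.54. Mybph, a myosin-binding protein, was at 12.99, 10.05 and 9.90, at 13.41 to 13.90 and at 9.11, 12.94 and 13.09. Their adjusted p-values in limma against control were between 0.383 and 0.476.

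Some neutrophil granule genes were high on control replicate 3 and MCUb knockout replicate 1. Ngp was at 10.34 on control replicate 3 and 9.62 on MCUb knockout replicate 1, and between 3.70 and 5.07 on the other 7 arrays. S100a8 was at 7.94 and 8.11 on the same arrays and between 3.57 and 5.63 on the others. The unnamed probe set TC0900001109.mm.2 was at 7.56 on control replicate 3 and between 15.59 and 17.15 on the other 8.

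Several major urinary protein genes on chromosome 4 were low in places. Mup19 was at 6.91, 8.66 and 6.34 on the MCU knockouts and 10.43, 8.64 and 9.55 on the controls (change -2.24, SE 0.77, adjusted p = 0.387), and Mup2 and Mup22 differed by -2.11 and -2.18. These near-identical copies may share signal.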
